A study of Mus musculus with 2 samples.

Results

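The enzymes of glycolysis and of the pentose phosphate pathway were examined in vaginal tissue of wild-type (WT) mice and of mice lacking fibulin-5 (*Fbln5*-/-), a protein that assembles elastic fibers. The set was taken from a list of 34 genes covering glucose uptake, the glycolytic enzymes, lactate and pyruvate handling and the pentose phosphate pathway, and a probe set was assigned to a gene only when the platform annotation named that gene alone. By this rule 30 of the 34 genes had a probe set and all 30 passed the filter on low signal, out of 11934 genes that passed it on these arrays. *Eno1*, *Gpi1* and *G6pdx* had no probe set under their name in the annotation used and were not analysed here. *Gapdh* was represented by control probe sets, which are shown apart.

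RNA came from whole vagina of female C57/Bl6 mice aged 6 months, all of them ovariectomized and given estradiol at 50 µg/kg/d for 3 d, so that the groups differed in the *Fbln5* genotype and shared the hormonal treatment. The sample labels give 11 d for the ovariectomy and the series description gives 2 weeks. The *Fbln5* deletion is carried by every cell of the animal, and whether RNA of several animals was pooled is not stated. There was 1 array per genotype, so no difference has a replicate check, no test was possible and no error between animals can be given. In whole tissue, a lower share of a cell type and less RNA per cell cannot be told apart.

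Glycolysis splits glucose into pyruvate in the cytosol and yields ATP and NADH. Pyruvate then enters the mitochondria through the pyruvate dehydrogenase complex, which pyruvate dehydrogenase kinases switch off, or is reduced to lactate and exported by monocarboxylate transporters. The pentose phosphate pathway branches from glucose 6-phosphate and supplies NADPH and ribose 5-phosphate. Many steps have several isoenzymes that are typical of certain tissues, and in the vagina estrogen is known to drive a thick, glycogen-storing stratified epithelium.

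The arrays carried signal intensities on a linear scale, scaled here to a common median, and a probe set was kept when it reached 100 on at least 1 array. A gene was read at its brightest probe set. Where a pair of signals is given, WT stands first and *Fbln5*-/- second. Of 45101 probe sets on each array, 21508 were kept. *Fbln5* itself was read at 410.4 in WT and 30.4 in *Fbln5*-/- tissue, which is at least 4.10-fold lower when a reading of 100 is taken for the knockout. The tissue label was checked against markers. The keratins *Krt5*, *Krt13* and *Krt10* of stratified epithelium had signals between 16059 and 21197 on both arrays, and the smooth muscle genes *Acta2* and *Tagln* lay between 9459 and 16566. Along the control transcript *Actb*, log2 ratios of *Fbln5*-/- to WT signal were −0.18 near the 3′ end and −1.87 near the 5′ end.

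Most genes of glucose metabolism had similar signals on both arrays. At the brightest probe set, 28 of the 30 genes lay within 2-fold and 25 within 1.5-fold. *Aldoc* and *Pdk4* were higher by 2-fold or more in the knockout, and no gene was lower by as much. The 2 higher genes are 6.67% of the 30, against a background of 7.21% of all 11934 genes measured, and the count of 0 lower genes stands beside a background of 4.77%. At 1.5-fold, 3 genes were higher (10.0% of the 30, background 20.0%) and 2 were lower (6.67%, background 10.4%). The median log2 ratio of the 30 genes was 0.26, with quartiles of 0.12 and 0.38, and that of all genes was 0.16, with quartiles of −0.17 and 0.50. Ratios above 0 were found for 24 of the 30 genes (80.0%) and for 63.6% of all genes, and 18 of the 30 lay above the median of all genes. Scaling the arrays so that probe sets reaching 100 on both have a median ratio of 1 lowered the median of all genes by 0.11 and that of the 30 genes to 0.15. *Pfkl* was the only gene of the 30 whose sign changed under any of the 4 other scalings, and it turned negative under each of them.

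**Figure D1:**
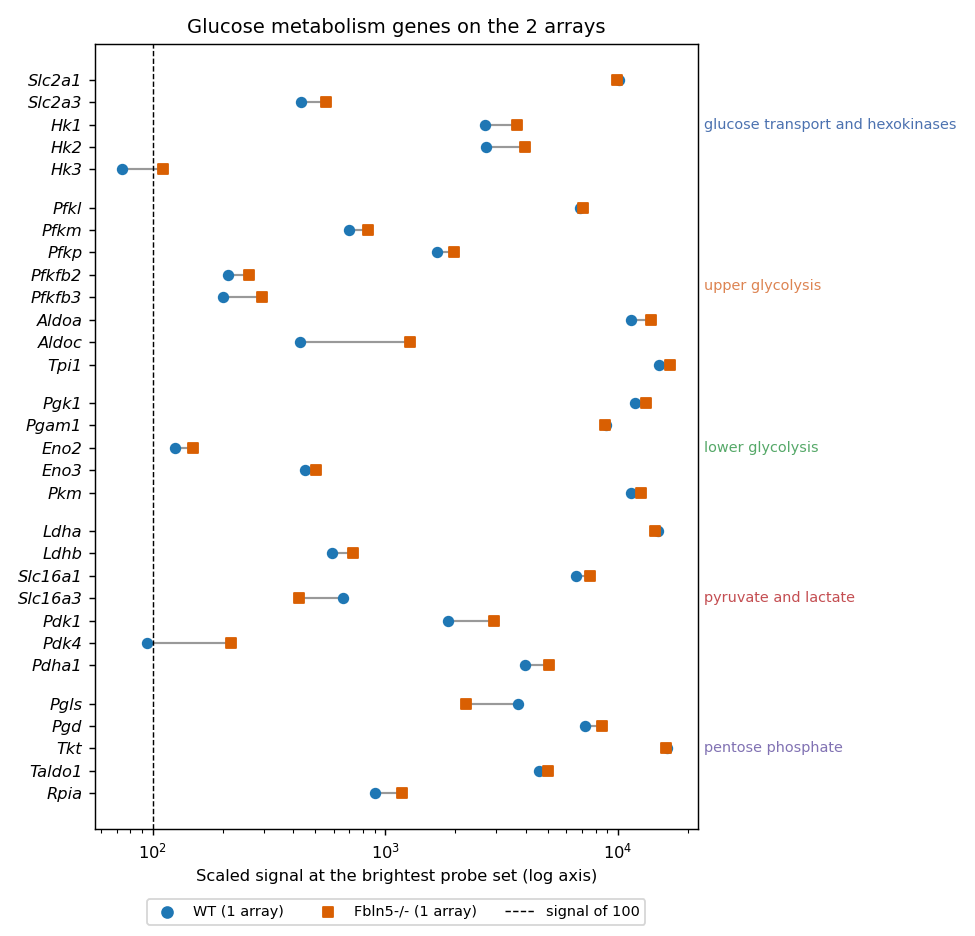
Scaled signal (log axis) of the 30 glucose metabolism genes at their brightest probe set, grouped by step, for WT (circles) and *Fbln5*-/- (squares), with 1 array per genotype. The dashed line marks a signal of 100. Most pairs nearly overlap, while *Aldoc* (428 and 1275) and *Pdk4* (94.2 and 216) are drawn apart to the right and *Pgls* (3704 and 2230) and *Slc16a3* (660 and 424) to the left.

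The promoters of a few of these genes are printed to set the sequence beside the ratios. Many glycolytic genes are known targets of hypoxia-inducible factor, whose binding element has ACGTG or GCGTG as its core. The 250 bases before each annotated start were searched for both on both strands, which includes matches within CACGTG, using RefSeq sequences of build GRCm38.p6 that matched 33 of the 34 genes by symbol. A gene with several starts was counted when any of its windows held the letters. ACGTG or GCGTG stood before 30 of the 33 genes (90.9%) and before 41.5% of all 27025 genes in the table. Among genes measured on these arrays the shares were 93.1% of the 29 matched and 61.0% of all 9610 matched. Searched separately, ACGTG was held by 44.8% of the 29 and 24.9% of the 9610, and GCGTG by 72.4% and 49.7%. Shown here are the only genes at least 2-fold apart, *Aldoc* and *Pdk4*, and then *Slc2a1* and *Pgk1*, bright genes with 1 annotated start each and log2 ratios of −0.03 and 0.16. Each run is written 5′ to 3′ on the strand of the gene, and capitals mark ACGTG or GCGTG on either strand.

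Aldoc, chr11:78322823-78323072, plus strand, the first of 2 starts: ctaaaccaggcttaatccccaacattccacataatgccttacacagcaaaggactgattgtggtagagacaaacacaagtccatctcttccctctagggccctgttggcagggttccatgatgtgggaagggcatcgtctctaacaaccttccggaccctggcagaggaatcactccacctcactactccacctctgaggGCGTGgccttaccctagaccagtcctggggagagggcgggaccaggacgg
Pdk4, chr6:5496279-5496528, minus strand: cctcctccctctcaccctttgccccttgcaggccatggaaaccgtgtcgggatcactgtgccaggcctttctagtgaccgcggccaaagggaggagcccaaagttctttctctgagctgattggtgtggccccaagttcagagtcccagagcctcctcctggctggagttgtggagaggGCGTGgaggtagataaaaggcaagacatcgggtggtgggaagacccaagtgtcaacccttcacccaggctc
Slc2a1, chr4:119108495-119108744, plus strand: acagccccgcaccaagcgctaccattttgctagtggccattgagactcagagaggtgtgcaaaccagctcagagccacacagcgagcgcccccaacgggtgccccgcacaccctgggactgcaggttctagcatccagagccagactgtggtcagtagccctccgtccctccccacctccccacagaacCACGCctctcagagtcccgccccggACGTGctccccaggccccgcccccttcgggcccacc
Pgk1, chrX:106186850-106187099, plus strand: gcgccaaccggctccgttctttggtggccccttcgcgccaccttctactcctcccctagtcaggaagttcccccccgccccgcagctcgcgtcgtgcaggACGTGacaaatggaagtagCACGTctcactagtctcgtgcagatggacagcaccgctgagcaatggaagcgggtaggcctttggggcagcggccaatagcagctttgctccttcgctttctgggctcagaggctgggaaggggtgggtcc

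All 4 windows hold a core. Those of *Aldoc* and *Pdk4* hold GCGTG 1 time each, that of *Slc2a1* holds ACGTG and GCGTG 1 time each, and that of *Pgk1* holds ACGTG 2 times. The 27 measured genes with either core had log2 ratios from −0.73 to 1.58 with a median of 0.25, and the 2 without it, *Tpi1* and *Eno2*, had 0.16 and 0.27. A match of this kind describes the sequence only.

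Genes with higher signals were also counted apart. Of the 20 glucose metabolism genes with a signal of 1000 or more on at least 1 array, 1 was at least 2-fold higher and 0 were lower, beside 5.85% and 4.14% of the 5286 genes as bright. Among these 20 the median log2 ratio was 0.18, and among the 5286 it was 0.15. The 7 genes of the pathway above 10000 had log2 ratios from −0.04 to 0.28, and 4 of them were above 0 (57.1%). The 308 genes as bright had quartiles of 0.01 and 0.21, with 76.0% above 0, 16 at least 2-fold higher and 3 lower. The 10 glucose metabolism genes that stayed under 1000 had a median log2 ratio of 0.30, beside 0.17 for all 6648 such genes. Of the 10, 1 was at least 2-fold higher, beside 8.3% of the 6648, and 0 were lower, beside 5.26%. The higher gene was *Pdk4*, which like *Hk3* was under 100 in WT and passed the filter through the *Fbln5*-/- array.

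**Figure D2:**
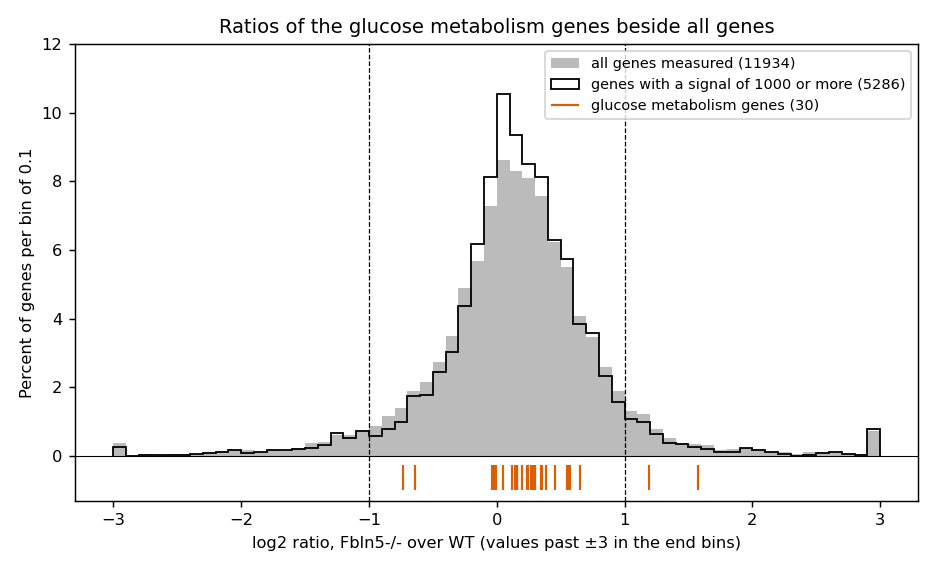
Distribution of log2 ratios (*Fbln5*-/- to WT, 1 array per genotype) over all 11934 genes measured (grey bars) and over the 5286 genes with a signal of 1000 or more on at least 1 array (black outline), in percent of genes per bin of 0.1. Orange ticks below the axis are the 30 glucose metabolism genes, whose median is 0.26 beside 0.16 for all genes, and dashed lines mark a 2-fold difference.

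Glucose enters cells through facilitative transporters. *Slc2a1* (GLUT1), a transporter of epithelium, gave 10086 in WT and 9878 in *Fbln5*-/- tissue at its brightest probe set. Its other probe sets gave 9558 and 9045, and 9111 and 8353. All 3 probe sets of *Slc2a1* were thus close together, with log2 ratios from −0.13 to −0.03. *Slc2a3* (GLUT3), a high-affinity transporter best known from neurons and blood cells, gave 434 and 555 (log2 ratio 0.36). A second probe set of *Slc2a3* read 95.5 and 169, which is at least 1.69-fold higher, and its 2 remaining probe sets were under 100 on both arrays.

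Hexokinases trap glucose in the cell as glucose 6-phosphate. *Hk2*, the insulin-regulated form of muscle and fat, gave 2702 in WT and 3964 in *Fbln5*-/- tissue, a log2 ratio of 0.55. *Hk1*, the broadly expressed form, gave 2667 and 3662 (log2 ratio 0.46) where it was brighter. Its other probe set read 1309 and 97.2, at least 13.1-fold lower on the *Fbln5*-/- array. The probe sets of *Hk1* therefore pointed in opposite directions, and a probe set annotated to *Hk1* and 5 other symbols gave 10519 and 12167 (log2 ratio 0.21). *Hk3*, the form of myeloid cells, was near the limit of 100, with 74.0 and 110 at one probe set and 46.9 and 117 at the other, which is at least 1.10-fold and at least 1.17-fold higher. Since *Hk3* was under 100 in WT, it could pass the filter only by being higher in the knockout. Over the 5 transport and hexokinase genes the median log2 ratio was 0.46 (0.36 with readings under 100 set to 100), and none was 2-fold apart at the brightest probe set. Myeloid markers measured beside *Hk3* were at least 2-fold higher for 3 of 10 genes (background 7.21%) and lower for 1 (background 4.77%). The higher genes *S100a8* and *S100a9* read 1198 and 4372, and 423 and 1231, and *Cd14* read 452 and 1033. The integrin *Itgam* read 434 and 76.4. The brightest, *Lyz2* and *Csf1r*, read 4455 and 3894, and 2552 and 3771. The rest lay within 1.5-fold: *Csf3r* (150 and 196), *Ptprc* (722 and 815), *Cd68* (783 and 770) and *Adgre1* (423 and 582). The summed signal of the 10 myeloid markers was 11592 for WT and 16741 for *Fbln5*-/-, and none was at 0. *S100a8* had the largest rise in signal, while *Itgam*, *Lyz2* and *Cd68* were lower. The part of the myeloid markers in the *Hk3* values was not tested.

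Phosphofructokinase commits the sugar to glycolysis, and its 3 subunits were all measured. *Pfkl*, the liver-type subunit, gave 6830 and 7067 at its brightest probe set (log2 ratio 0.05) and 3408 and 2637 at a second (−0.37). The dimmest probe set read 106 and 81.2. *Pfkm*, the muscle-type subunit, gave 694 and 845 (log2 ratio 0.28), and *Pfkp*, the platelet-type subunit, gave 1667 and 1976 (0.25). A second *Pfkp* probe set was 254 in WT and 4.83 in the knockout, at least 2.54-fold lower. The remaining one did not reach 100 on either array. As with *Hk1*, the brighter *Pfkp* probe set did not share this difference.

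The bifunctional enzymes *Pfkfb2* and *Pfkfb3* set the level of fructose 2,6-bisphosphate, the main activator of phosphofructokinase. *Pfkfb3*, the inducible form, gave 200 and 295 (log2 ratio 0.56) on the brighter of its probe sets, and 101 and 103 on the dimmer. *Pfkfb2*, the heart-type form, gave 210 and 259 (log2 ratio 0.30). A dimmer *Pfkfb2* probe set read 14.4 and 109, at least 1.09-fold higher, and 2 were under 100 on both arrays. These dim probe sets add little, since a reading of 14.4 is far below the limit used here.

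Aldolase cleaves fructose 1,6-bisphosphate. *Aldoa*, the muscle and general form, was measured by 5 probe sets, with 11408 for WT and 13850 for *Fbln5*-/- at the brightest. The 5 log2 ratios of *Aldoa* ran from 0.20 to 0.49 and none was below 0. All 5 are of a type (names ending in _x_at) whose probes may match other transcripts as well. *Aldoc*, the form typical of brain, had the widest gap of the 30 genes at its brightest probe set, with signals of 428 and 1275, a log2 ratio of 1.58 or 2.98-fold. Its only other probe set read 11.5 and 42.8, under 100 on both arrays, so the difference rests on 1 probe set, whose name ends in _a_at and marks probes shared by several transcripts of the gene. Nerve markers measured beside it gave 589 and 548 for *Tubb3*, 60.1 and 129 for *S100b* (at least 1.29-fold higher) and 290 and 86.0 for *Prph* (at least 2.90-fold lower). With readings under 100 set to 100, 1 of the 4 measured was 2-fold lower (background 3.95%) and 0 were higher (background 5.8%). The summed signal over 7 listed markers was 1151 for WT and 1094 for *Fbln5*-/-. *Nefl*, *Nefm* and *Snap25*, which define neurons, were under 100 on both arrays, and none was at 0. *Tpi1*, triosephosphate isomerase, gave 15030 and 16743, and log2 ratios from 0.07 to 0.30 over 3 probe sets. The 8 measured genes of the upper pathway had 0.28 as their median log2 ratio, with 1 at least 2-fold higher (background 7.21%) and 0 lower (background 4.77%).

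The steps below the trioses were the most even group. *Pgk1*, phosphoglycerate kinase, gave 11809 in WT and 13188 in *Fbln5*-/- tissue, and its 3 probe sets had log2 ratios of 0.16, 0.22 and 0.26. *Pgam1*, phosphoglycerate mutase, gave 8867 and 8810 (log2 ratio −0.01). *Pkm*, the pyruvate kinase of most tissues, gave 11348 and 12538 (log2 ratio 0.14). *Eno2*, the neuronal enolase, read 124 and 150, and *Eno3*, the muscle enolase, read 452 and 504. The 5 genes had log2 ratios from −0.01 to 0.27 and a median of 0.16, the same to 2 decimals as that of all genes. Each of *Pgam1*, *Pkm*, *Eno2* and *Eno3* was read from 1 probe set. Transcripts of this pathway have many near-identical processed copies in the mouse genome, and whether probes share targets with them was not tested.

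*Gapdh*, glyceraldehyde 3-phosphate dehydrogenase, stands apart. Its control probe sets gave log2 ratios of 0.05 at the 3′ end (13329 and 13829), −1.16 for the middle (15720 and 7058) and −4.44 for the 5′ end (17262 and 795). The arrays thus matched at the 3′ end of *Gapdh* and lay 21.7-fold apart at its 5′ end. A probe set annotated to *Gapdh* together with 4 other symbols gave 12352 and 13261 (log2 ratio 0.10), and 2 dimmer ones annotated to *Gapdh* and 1 more symbol had log2 ratios of 0.33 and 0.15. The second probe sets of *Hk1* (−3.75) and *Pfkp* (−5.71) were low on the same array as these 5′ values. The position of each probe set on its transcript was not looked up. Its part in these values, or in other values lower on the *Fbln5*-/- array, was not tested.

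**Figure D3:**
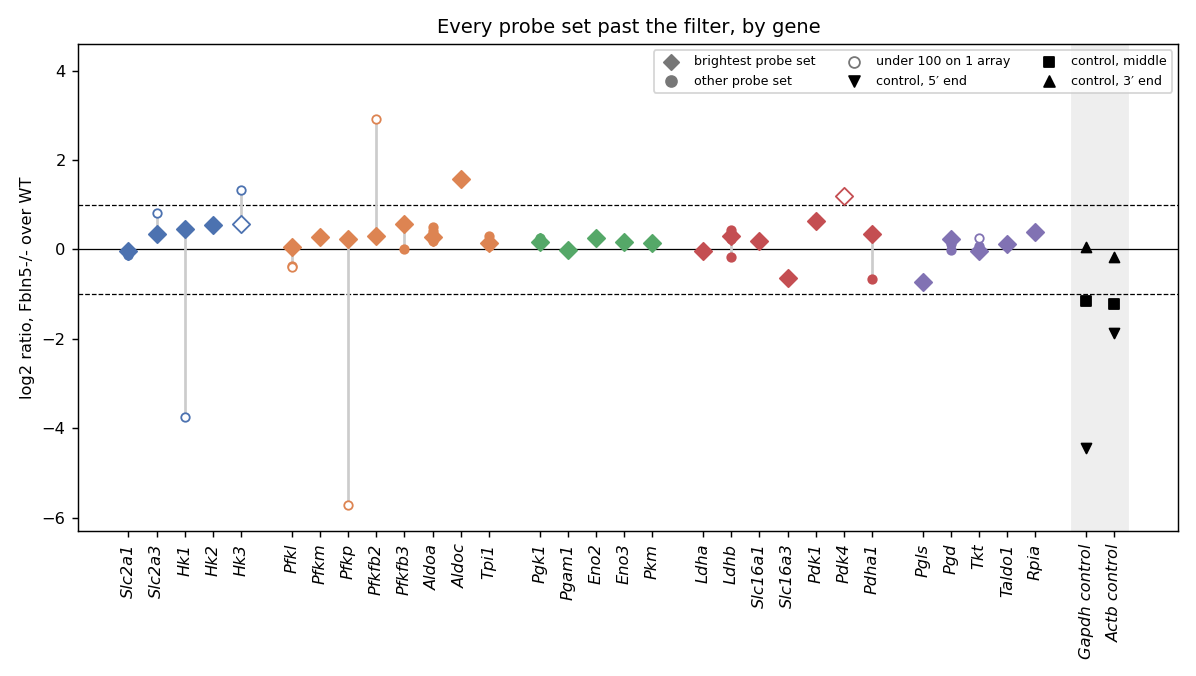
Log2 ratio of *Fbln5*-/- to WT signal (1 array per genotype) for each of the 59 probe sets past the filter, by gene and coloured by step, with the control probe sets of *Gapdh* and *Actb* on grey at the right. Diamonds are the brightest probe set of a gene, circles the others, open symbols have a signal under 100 on 1 array, and dashed lines mark a 2-fold difference. The outlying points are the second probe sets of *Hk1* (−3.75), *Pfkp* (−5.71) and *Pfkfb2* (2.92), and the *Gapdh* control runs from 0.05 at the 3′ end to −4.44 at the 5′ end.

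Counted over probe sets, the pathway had 67 in all, of which 59 passed the filter and 8 were under 100 on both arrays. At least 2-fold higher were 4 of the 59 (6.78%, background 6.49% of 21508 probe sets) and at least 2-fold lower were 2 (3.39%, background 8.52%). With signals under 100 set to 100 the count of higher probe sets was 2, those of *Aldoc* and *Pdk4*. Of the 30 genes, 16 had several probe sets past the filter. Their probe sets spanned a median of 0.45 on the log2 scale, against 0.60 for all 4893 genes with several. The span reached 1 or more in 4 of the 16 genes (25.0%) and in 30.8% of all such genes. The probe sets lay on both sides of 0 in 7 of the 16 (43.8%) and in 47.7% of all such genes.

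Lactate dehydrogenase interconverts pyruvate and lactate. *Ldha*, its muscle-type subunit, gave 14791 in WT and 14424 in *Fbln5*-/- tissue (log2 ratio −0.04). *Ldhb*, the heart-type subunit, gave 586 and 723, and its 4 probe sets had log2 ratios of 0.30, 0.23, −0.16 and 0.44. Neither subunit was 1.5-fold apart between the arrays. Of the lactate exporters, *Slc16a1* (MCT1) gave 6569 and 7541 (log2 ratio 0.20). *Slc16a3* (MCT4), the transporter of cells that release much lactate, was lower on the *Fbln5*-/- array, with 660 and 424 (1.56-fold lower, 1 probe set). *Bsg*, the chaperone that carries both transporters to the membrane, gave 7376 and 3889 (1.90-fold lower, 1 probe set).

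Pyruvate dehydrogenase kinases phosphorylate and switch off the pyruvate dehydrogenase complex. *Pdk1* gave 1863 in WT and 2919 in *Fbln5*-/- tissue at its brightest probe set. Its next probe sets gave 1349 and 2181, and 827 and 1333. These 3 readings of *Pdk1* were close to each other, at 1.57-fold, 1.62-fold and 1.61-fold higher on the *Fbln5*-/- array, while a further one (24.1 and 2.06) stayed below 100. *Pdk4*, the kinase induced by fasting and fatty acids in muscle and fat, gave 94.2 and 216, at least 2.16-fold higher at its only probe set (log2 ratio 0.97 when 32 was added to each signal). The other kinases, which were not in the list of 34, had 1 probe set each. They gave 146 and 246 for *Pdk2* (log2 ratio 0.76) and 919 and 1299 for *Pdk3* (0.50). Ratios above 0 were found for 63.6% of all genes, and *Pdk4*, under 100 in WT, could pass the filter only by being higher in the knockout. *Pdha1*, the catalytic subunit that the kinases act on, gave 3979 and 5066 by the brighter probe set, a log2 ratio of 0.35, whereas the dimmer gave 1017 and 639 (−0.67). For the 7 genes of pyruvate and lactate handling the median was 0.30, with 1 at least 2-fold higher (background 7.21%) and 0 lower (background 4.77%).

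Cells of fat and muscle express *Pdk4* and *Hk2*, and their markers were read on the same arrays. Of 6 adipocyte markers measured, 5 were higher by 2-fold or more in the knockout (background 7.21% of all genes). The list was chosen with earlier results of these data known, so this count describes the arrays and is no test. The summed signal of the 9 with a probe set was 3082 for WT and 12134 for *Fbln5*-/-. *Adipoq* gave 104 and 1131, *Lpl* 644 and 3740 and *Fabp4* 1980 and 5703. *Ucp1* read 9.63 and 696 (at least 6.96-fold higher) and *Retn* 34.8 and 449 (at least 4.49-fold higher). Both *Ucp1* and *Retn* were under 100 in WT, so they could pass the filter only by being higher in the knockout. *Slc2a4* (GLUT4), the insulin-regulated transporter of fat and muscle, was the exception with 247 and 219 at its brighter probe set and a log2 ratio of −4.20 at the other, and *Pparg*, *Lep* and *Cidec* were under 100 on both arrays. Of 11 skeletal muscle markers measured, 2 were at least 2-fold higher (background 7.21%), *Myh1* (570 and 1923) and *Myh2* (170 and 373). Of these markers 0 were 2-fold lower (background 4.77%), 10 had ratios above 0 (63.6% of all genes), and *Ckm* was lower (829 and 671). The brightest were *Acta1* (2553 and 3257) and *Tnnc2* (1081 and 1451), and the summed signal of 12 was 7595 and 11187. No marker of either list was at 0. The part of these cells in the *Pdk4* and *Hk2* values was not tested.

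In the pentose phosphate pathway, the oxidative steps gave mixed values. *Pgls*, 6-phosphogluconolactonase, gave 3704 in WT and 2230 in *Fbln5*-/- tissue, 1.66-fold lower and the lowest ratio of the 30 genes at the brightest probe set, read from 1 probe set. *Pgd*, the NADPH-forming 6-phosphogluconate dehydrogenase, gave 7222 and 8489, and its 4 probe sets had log2 ratios from −0.01 to 0.26. At the brightest probe set *Pgls* was thus lower, while *Pgd* (log2 ratio 0.23) lay near the median of all genes (0.16). In the non-oxidative branch, *Tkt* (transketolase) gave 16305 and 16031 (log2 ratio −0.02), *Taldo1* (transaldolase) 4585 and 4974 (0.12) and *Rpia* (ribose 5-phosphate isomerase) 905 and 1179 (0.38). Further *Tkt* probe sets read 4219 and 4451, and 91.1 and 108. The 5 genes had a median log2 ratio of 0.12 and none was 2-fold apart. *H6pd*, which starts the same oxidative steps in the endoplasmic reticulum and was not in the list of 34, gave 848 and 1564 (log2 ratio 0.88).

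Further genes of the same pathways, and of glycogen and the hypoxia response, were read from lists. Of 14 other glycolytic isoenzymes and regulators measured (23 listed), none was 2-fold apart and the median log2 ratio was 0.11. The brightest of them were *Pgm1* (849 and 1313) and *Pgm2* (732 and 973), both named as phosphoglucomutases. *Pklr*, the liver pyruvate kinase, and *Slc2a2*, the liver glucose transporter, were under 100 on both arrays. Of 15 other pyruvate and lactate genes (17 listed), 0 were at least 2-fold higher and 0 lower with readings under 100 set to 100, and the median was 0.07. The transporter *Slc16a7* read 110 and 51.3, at least 1.10-fold lower. *Pdhb*, the partner of *Pdha1*, read 4407 and 5021. Of 4 other pentose phosphate genes (9 listed) none was 2-fold apart, with a median of −0.01. The brightest, *Rpe* and *Prps2*, read 1636 and 1362, and 1570 and 1536.

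Of 15 glycogen genes (19 listed), 2 were at least 2-fold higher (background 7.21%), none was lower (background 4.77%) and the median log2 ratio was 0.36. The higher genes were *Pygl*, the liver-type glycogen phosphorylase (177 and 470, 2.66-fold), and *Ppp1r3b*, which directs a phosphatase to glycogen (276 and 654, 2.37-fold), each with 1 probe set. The brightest of the list were *Ugp2*, which makes UDP-glucose (3526 and 3727), and *Pygb*, the brain-type phosphorylase (898 and 1154). Of 18 hypoxia-response genes, 3 were at least 2-fold higher (background 7.21%), none was lower (background 4.77%) and the median was 0.45. *Egln3*, a prolyl hydroxylase, gave 1631 and 6821 at its brighter probe set and log2 ratios of 2.06 and 2.38 at both. *Bnip3*, a mitophagy receptor, had 2222 and 5822 (1 probe set). *Epas1* (HIF-2α) had 2231 and 4586 at its brighter probe set, but −0.35 on the log2 scale at the other. *Hif1a* itself read 10968 and 13990 at its brightest probe set, with a lowest log2 ratio of −2.96 among 3, and *Higd1a* read 7897 and 8992. At the brightest probe set, 16 of the 18 had ratios above 0 (63.6% of all genes). The lower ones were *Ddit4* (2215 and 1796) and *P4ha1* (867 and 602). Of the 30 glucose metabolism genes, 25 lay within 1.5-fold. *Aldoc*, *Pdk4* and *Pdk1* were at least 1.5-fold higher, and *Pgls* and *Slc16a3* were lower by as much. The part of the hypoxia response in these values was not tested.

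**Figure D4:**
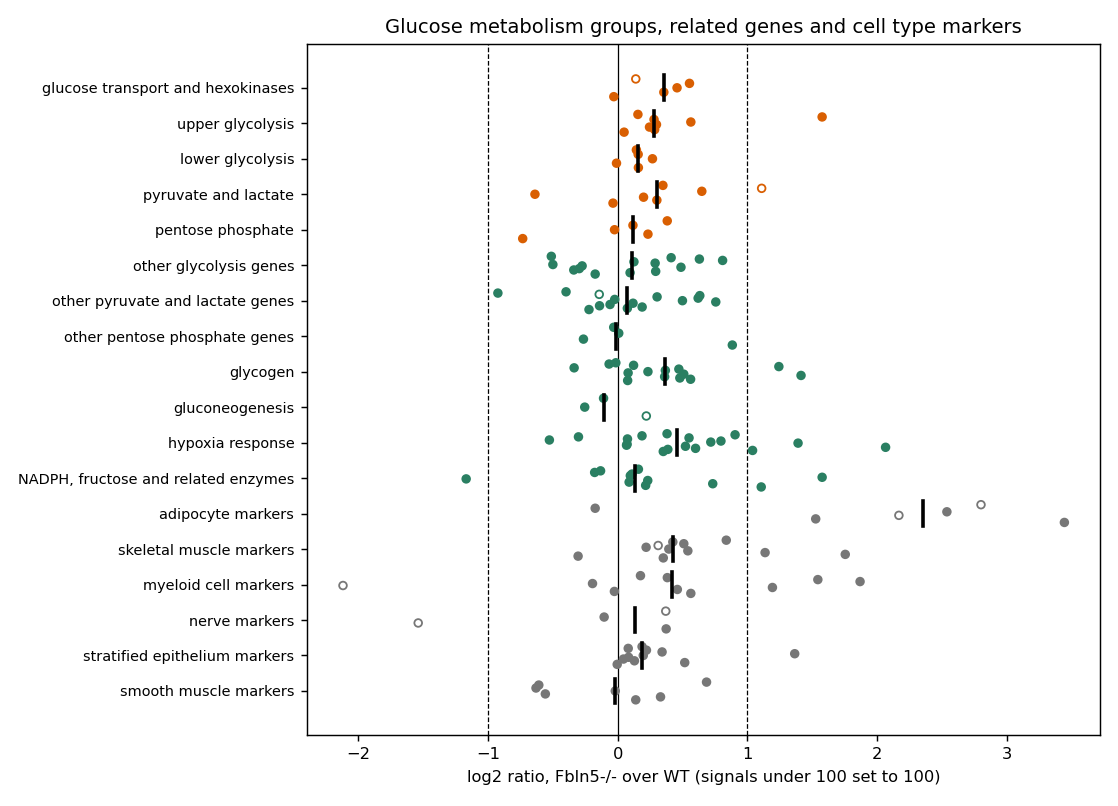
Log2 ratio of *Fbln5*-/- to WT signal (1 array per genotype, signals under 100 set to 100) of measured genes in the 5 groups of glucose metabolism genes (orange), in lists of related genes (green) and in cell type markers (grey). Black bars are list medians, open symbols are genes under 100 on 1 array, and dashed lines mark a 2-fold difference. The orange groups have medians from 0.12 to 0.36, the hypoxia-response list 0.45 and the adipocyte markers 2.35.

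The median of the epithelium markers was near that of all genes (0.16), while that of the smooth muscle markers was lower. Of 11 stratified epithelium markers measured, 1 was at least 2-fold higher (background 7.21%), *Ivl* with 521 and 1341. The median log2 ratio of the 11 was 0.19, with a summed signal of 132440 for WT and 149292 for *Fbln5*-/-. Of 7 smooth muscle markers, none was 2-fold apart and the median was −0.02, with summed signals of 39645 and 41920. Their log2 ratios ran from −0.63 (*Des*) to 0.68 (*Actg2*), and 3 were above 0. None of the 3 red cell markers with a probe set reached 100.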

How the data were processed

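RNA from vagina was hybridized to Affymetrix mouse expression arrays, 1 array per genotype, and the study's methods give 2 animals in each group. The authors deposited signal intensities on a linear scale, made with MAS5 per the labels, whose version is not given, with a trimmed mean of 500.0 on both arrays. Detection calls were not used here. As in the methods, both arrays were brought to the same 50th percentile (factors 0.972 and 1.03), 1 signal of 0 was set to 0.1, and a probe set was kept where either array reached 100. Per-gene normalization leaves ratios as they are. The number of arrays limits precision.

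Of 45101 probe sets, 34958 were annotated to 1 gene symbol, 932 to several and 9211 were not listed. Identifiers of 34754 matched the GRCm38.p6 gene table, used for names only. Each gene was read at its brightest probe set and a 2-fold ratio was counted. Where 1 array was under 100, a fold is a bound against 100. Members, lists and motif were chosen with earlier results of these data known. All measured members are named, and from each other list the genes 2-fold apart and the 2 brightest, with some further genes named after their values were seen. Counts use the measured signals unless a floor of 100 is named. The steps were run in Python 3.11.15 with pandas 2.3.3, numpy 2.4.6, matplotlib 3.10.9 and scipy 1.17.1. They were tested on simulated data in which every probe set of a gene had the same ratio and no signal was lost toward the 5′ end. The simulation thus could not test the choice of probe set. Alternatives covered the scaling, the filter, the fold counted, added constants and the choice of probe set.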

Additional observations from a re-analysis of the deposited data

How the results depend on the processing

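No paired analysis was possible because there was 1 array per genotype, and for the same reason no replicate could be left out. The count of glucose metabolism genes at least 2-fold higher was 2 under each of the 4 other scalings, and *Aldoc* had log2 ratios from 1.47 to 1.58 over the alternatives that kept it. It was 1 with 100 or more required on both arrays (no *Pdk4*), 1 with 32 added to each signal (*Pdk4* at 0.97), 1 without _x_at, _s_at and _a_at probe sets (no *Aldoc*), 0 at 3-fold, and 4 with the probe set of highest ratio, an alternative chosen after seeing the data. The count at least 2-fold lower was 2 with the mean or the median over all probe sets of a gene, 2 at 1.5-fold, and 2 with the probe set of lowest ratio, also chosen after seeing the data. With the mean or the median, 3 genes were higher, and the lower ones were *Hk1* and *Pfkp*, whose log2 ratios ran down to −1.65 and −2.73. The median log2 ratio was 0.15 with arrays scaled so that probe sets reaching 100 on both have a median ratio of 1 and 0.13 with the probe set of lowest ratio. Probe sets at least 2-fold higher numbered 2 with 200 or more on at least 1 array, 2 with a floor of 100 and 2 with 32 added. Over all genes, 861 were higher and 569 lower, which turned to 676 and 706 with that scaling and to 779 and 835 with the mean over probe sets. The causes were not tested. Dim genes are out of reach, since 54.8% (WT) and 55.9% (*Fbln5*-/-) of deposited signals were under 100.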

Other observations

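Enzymes beside the pathway that make NADPH or take its intermediates were read in the same way. Of 12 such genes measured, 2 were 2-fold or more higher in the knockout (background 7.21%) and 1 was lower (background 4.77%). The median log2 ratio of the 12 was 0.14. *Me1*, the cytosolic malic enzyme that supplies NADPH for lipid synthesis, gave 4501 in WT and 9689 in *Fbln5*-/- tissue, and its 2 probe sets had log2 ratios of 1.11 and 0.51. *Gpd1*, the cytosolic glycerol 3-phosphate dehydrogenase of fat, liver and muscle, gave 107 and 318 (log2 ratio 1.58), with 1.73 at its other probe set past the filter. *Idh1*, a further cytosolic NADPH source, was the second brightest of the 12 and read 3296 and 5476 (log2 ratio 0.73). *Mthfd2*, a mitochondrial folate enzyme, was the lower gene, with 945 and 421 at its brighter probe set and a log2 ratio of −0.16 at the other. These values stand next to the summed adipocyte markers, 3082 for WT and 12134 for *Fbln5*-/-, whose part in them was not tested.

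Of 3 gluconeogenesis genes measured (6 listed), *Pck1*, the cytosolic phosphoenolpyruvate carboxykinase, gave 4.38 and 117 and was at least 1.17-fold higher. *Pck2* and *G6pc3* were the brightest, with 910 and 763, and 486 and 451. *Fbp1*, *Fbp2* and *G6pc* were under 100 on both arrays.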
